A study of Mus musculus with 6 samples.

Results

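Entry into mitosis, the assembly of the spindle and the final split of the cell depend on a set of genes that are transcribed together late in the cell cycle. The 52 mitosis genes described here were chosen by name, by what their products do, from the 17060 genes listed in at least 1 culture. Earlier results of these data were known when they and the other gene lists were chosen. Counts over these lists are therefore not independent of the data. All 52 were listed in all 6 cultures and passed the filter on low counts, and each was read by 394 to 43494 expected counts in every culture. Lineage-negative BM cells of wild-type mice (BM cells from which the mature blood lineages have been removed) were grown in an EPO induction culture system, in which erythropoietin drives them into erythroblasts. They were treated for 48 hours either with the solvent DMSO, labelled NC (n = 3 cultures), or with NUP-17d (n = 3 cultures), a small molecule made against the DEP domain of Plek2. All 6 cultures share the mouse genotype, the EPO medium and the time, and the labels do not say whether the 3 cultures of a group came from separate mice. The p-values therefore measure the spread between these cultures, which may be technical.

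A cell enters mitosis when the kinase Cdk1, bound to its cyclins, becomes active, after which condensins fold the chromosomes, kinetochores tie them to spindle microtubules, and a checkpoint holds back anaphase until all are attached. The anaphase-promoting complex then marks securin and the cyclins for destruction, the sister chromatids part, and a ring at the cell's middle closes between them. Genes for these steps are kept silent in resting cells by the DREAM complex and are switched on in G2 by the MuvB complex with Mybl2 and Foxm1, together with NF-Y, through DNA elements named CHR (cell cycle homology region) and CCAAT box. In the erythroid lineage these steps run through a series of quick divisions, and the last of them precede the loss of the nucleus.

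The libraries held 20278433 to 20419018 expected counts in the DMSO cultures and 20076409 to 20170197 in the NUP-17d cultures. Hemoglobin genes took 18.3% to 20.3% of the counts with DMSO and 11.8% to 13.1% with NUP-17d. A change of that size in a few very abundant genes shifts the share left for every other gene, so levels are given as TMM-normalized CPM, counts brought to a common library size with a factor (TMM) that sets the bulk of genes level between libraries. These factors ran from 0.887 to 0.930 with DMSO and from 1.08 to 1.11 with NUP-17d. The hemoglobin share covers only part of them, as the pool of mitosis genes below shows, and the genes behind the rest were not traced. Scaled by library totals alone, without this factor, the median log2 fold change of the 12306 genes tested was 0.28 in place of 0.01.

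With TMM scaling the mitosis genes were lower in the NUP-17d cultures, by little, whereas with library totals alone most of them were higher. By the quasi-likelihood test of edgeR, its p-values adjusted after Benjamini and Hochberg across the 12306 genes, 37 of the 52 fell and 0 rose, where 18.9% of all genes tested fell and 16.4% rose. The fitted log2 fold changes of all 52 were below 0 and below the median of all genes, with a median of -0.18 and a range from -0.47 (Incenp) to -0.03 (Spc24). Most of the falls were small. The fitted level was 0 to 10% below DMSO for 22 genes, 10% to 20% below for 26 and 20% to 30% below for 4. In 40 of the 52 genes every NUP-17d culture lay below every DMSO culture, against 23.2% of all genes tested, and in 0 did the reverse hold. DESeq2 called 32 of the 52 lower and 0 higher, against 15.0% of its genes called lower.

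The direction against zero rests on the composition factor. Scaled by library totals alone, 25 of the 52 were called higher (68.7% of all genes tested were) and 1, Incenp, was called lower (5.34% were). On that scale 33 of the 52 lay wholly above DMSO, against 70.2% of all genes, and 1 wholly below, against 5.69%. With limma on log2(FPKM + 1), FPKM being the authors' level per length of transcript and size of library, 26 were called higher (74.9% of genes) and 1 lower (5.68%), and 33 and 1 lay wholly above and below DMSO (69.8% and 5.53% of genes). The 6 genes with the largest falls after Incenp, Cit (-0.10), Pttg1 (-0.08), Mki67 (-0.06), Nusap1 (-0.04), Ncapg (-0.03) and Cenpe (-0.01), stayed below 0 on the log2 scale with library totals but were no longer called. The position among other genes could not turn between TMM and library totals, since a library factor moves all genes by nearly the same amount. On both, the 52 had a median log2 fold change 0.19 below the median gene. With FPKM, which is also scaled by library size, it was 0.15 below. All 52 lay below the median gene on each of the 3 scales, which is 1 result rather than 3.

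**Figure D1:**
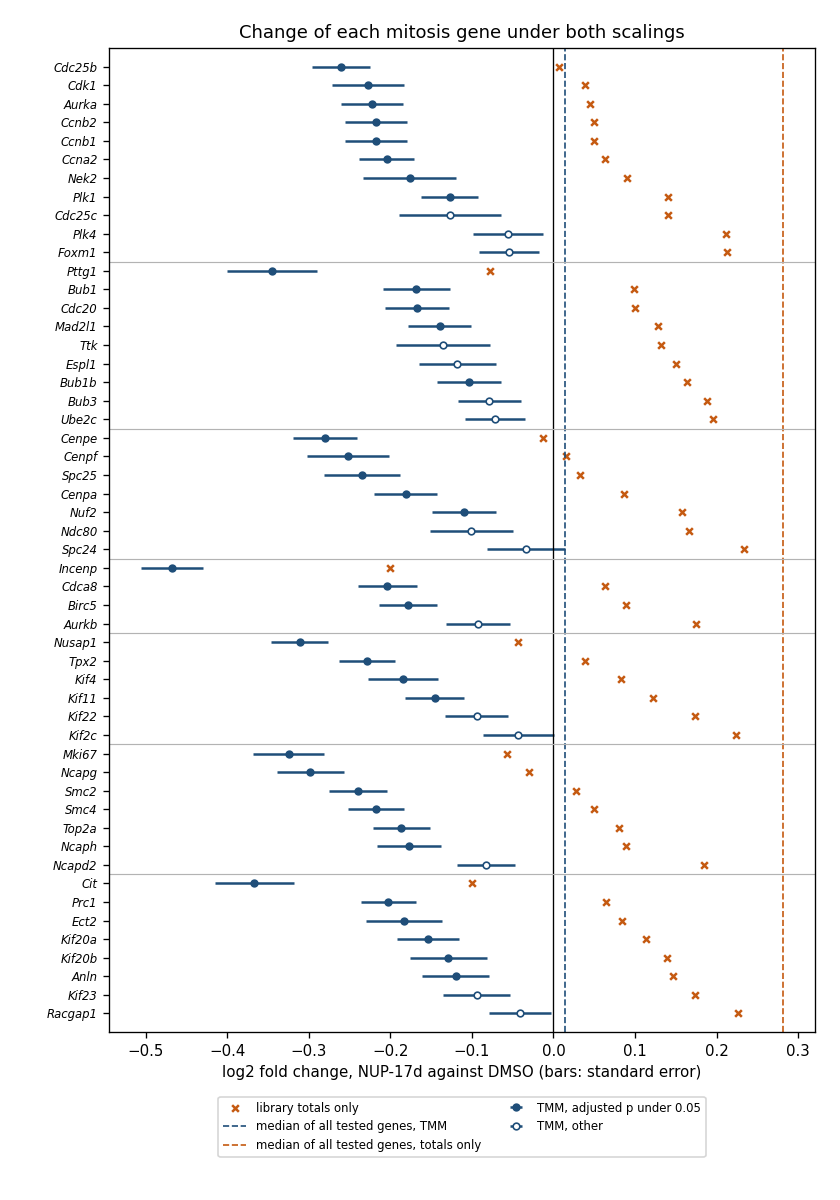
Log2 fold change (x axis, NUP-17d against DMSO) of the 52 mitosis genes (y axis, grouped by role), as circles for TMM scaling with the standard error as a bar, filled where the adjusted p was under 0.05, and as crosses for library totals only. All circles lie left of 0 and most crosses right of it, and on each scale all 52 genes lie left of the dashed median of all genes tested (0.01 and 0.28).

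As a pool, the 52 genes summed to 9675, 9407 and 9308 TMM-normalized CPM in the DMSO cultures and to 8422, 7852 and 8081 in the NUP-17d cultures. The groups did not overlap and the NUP-17d mean was 85.8% of the DMSO mean, while an exact permutation test on 3 against 3 cultures gave its smallest possible two-sided p of 0.1. Mki67 alone made up 24.0% of this sum with DMSO. Without it the sums were 7096 to 7314 with DMSO and 6132 to 6455 with NUP-17d, still with no overlap. As a share of all expected counts the pool was 0.854% to 0.875% with DMSO and 0.869% to 0.928% with NUP-17d, groups that overlap (exact two-sided p = 0.3). As a share of the counts outside hemoglobin genes it was 1.05% to 1.08% against 0.986% to 1.05%, with the highest NUP-17d culture just below the lowest DMSO culture. On this share the NUP-17d mean was 95.2% of the DMSO mean, beside 85.8% with TMM scaling.

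The NUP-17d cultures were not equally far from DMSO. Culture 2 held the lowest NUP-17d level for 37 of the 52 genes and culture 1 the highest for 34. Among the DMSO cultures, culture 1 was highest for 37 genes and culture 3 lowest for 29. The spread was narrow all the same, with a median coefficient of variation over the 52 genes of 2.40% in the DMSO group and 3.53% in the NUP-17d group. Leaving out any 1 of the 6 cultures left 32 to 41 genes called lower and 0 called higher, and 32 of the 37 calls stood in each of these 6 fits. The 5 that were lost in some of them were Nek2, Bub1b, Nuf2, Kif20b and Anln. The shares of all genes called in these fits were not counted.

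**Figure D2:**
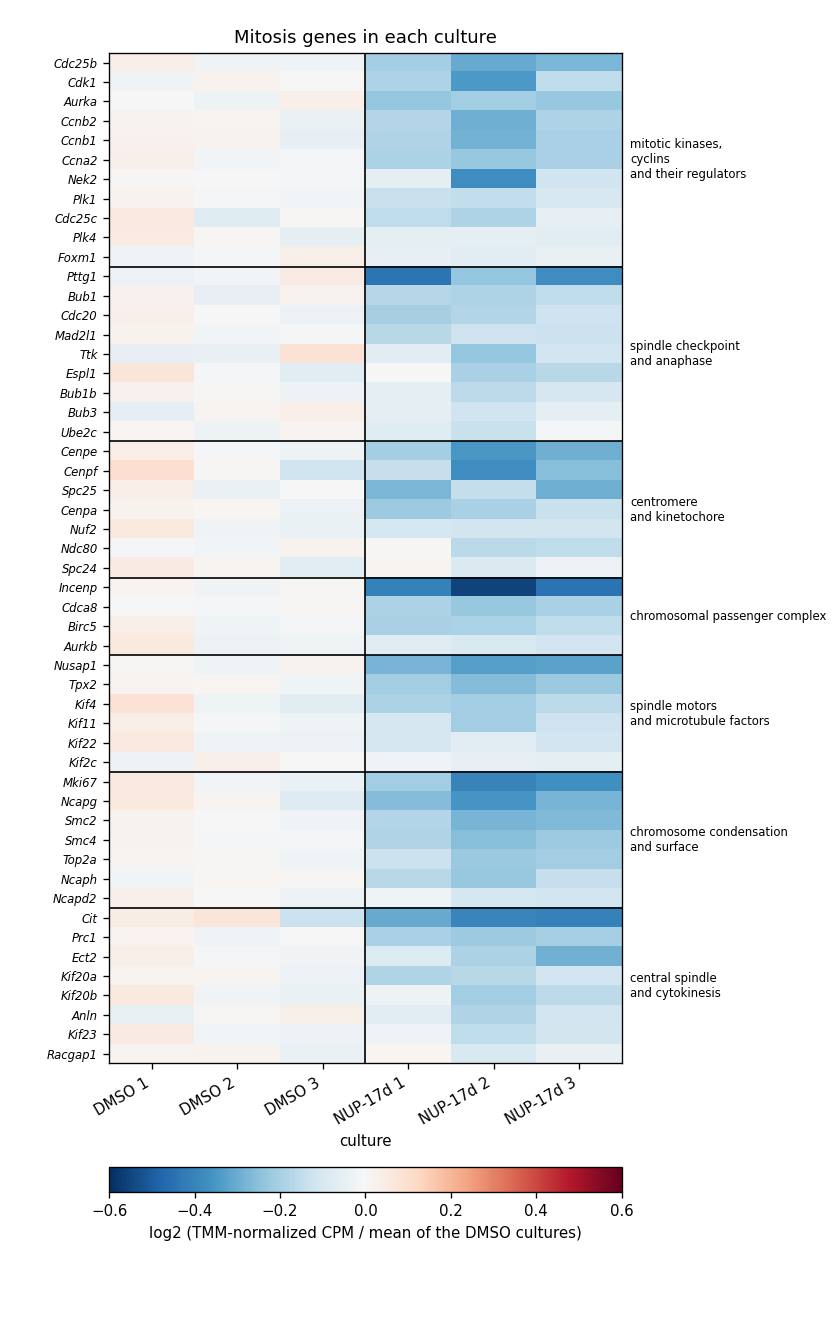
Each mitosis gene (rows, grouped by role and ordered by log2 fold change) in each of the 6 cultures (columns), colored by the log2 ratio of its TMM-normalized CPM to the mean of the DMSO cultures, blue for lower. The NUP-17d columns are blue for most genes, palest in culture 1 and darkest in culture 2 for many of them, and Incenp is the darkest row; with library totals alone most rows would turn to the other side of 0.

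The sequence before the transcription starts of the mitosis genes was examined for the letters of the elements named above. RefSeq promoter windows (build GRCm38.p6, 250 bases before to 50 after each start) were on hand for 43 of the 52 genes. The CHR core, TTTGAA on either strand, was found in a window of 30 of the 43 (69.8%), against 14.6% of the 9746 tested genes with a window, or 71.7% against 12.4% counted over promoters. The NF-Y core, CCAAT on either strand, was in 72.1% against 43.3%, and both cores were in 60.5% against 6.1%. An E2F core, searched on both strands as TTGGCGC, the related TTGCCGC, also TTCGCGC and lastly TTCCCGC, was in 18.6% of the mitosis genes and 19.2% of all. The 40 genes of DNA replication with a window showed the other pattern, with a CHR core in 17.5% and an E2F core in 62.5%. Motif matches overlapped each other in 5 of the 46 promoters of the mitosis genes.

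The 120 bases before the start are shown for the 5 genes with the largest falls on the TMM scale among those that hold a CHR core there, to show where the element lies. Capitals mark TTTGAA or its complement TTCAAA, and CCAAT or its complement ATTGG, and each run is written 5′ to 3′ on the gene's strand and ends at the base before the start. They are Mki67 (chr7:135716380-135716499, minus strand), Ncapg (chr5:45669805-45669924, plus strand), Cdk1 (chr10:69352913-69353032, minus strand), Prc1 (chr7:80294356-80294475, plus strand) and Top2a (chr11:99024190-99024309, minus strand).
Mki67: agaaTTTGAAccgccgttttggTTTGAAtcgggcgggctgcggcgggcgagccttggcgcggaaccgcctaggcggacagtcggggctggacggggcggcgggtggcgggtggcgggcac
Ncapg: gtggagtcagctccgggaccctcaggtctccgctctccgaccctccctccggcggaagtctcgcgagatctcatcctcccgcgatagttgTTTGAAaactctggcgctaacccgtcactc
Cdk1: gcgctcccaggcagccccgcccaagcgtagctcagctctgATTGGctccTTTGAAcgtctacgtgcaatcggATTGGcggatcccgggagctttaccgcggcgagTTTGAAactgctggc
Prc1: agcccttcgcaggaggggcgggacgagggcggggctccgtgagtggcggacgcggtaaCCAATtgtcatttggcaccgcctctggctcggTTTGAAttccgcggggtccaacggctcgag
Top2a: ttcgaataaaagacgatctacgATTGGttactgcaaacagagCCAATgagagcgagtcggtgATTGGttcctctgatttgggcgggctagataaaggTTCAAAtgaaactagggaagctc

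In Cdk1, Prc1, Ncapg and Top2a the CHR core nearest the start ends 9, 24, 24 and 17 bases before it, and in Mki67 it ends 92 bases before it. Top2a carries 3 NF-Y cores within the 120 bases, Cdk1 2 and Prc1 1. Of the 30 mitosis genes with a CHR core in a window, 20 were called lower with TMM scaling, and their median was -0.16 on the log2 scale. Of the 13 without one, 12 were called lower, and their median was -0.18. The difference between them was not tested. A match of letters is a description of the sequence and was not tied to any binding here.

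**Figure D3:**
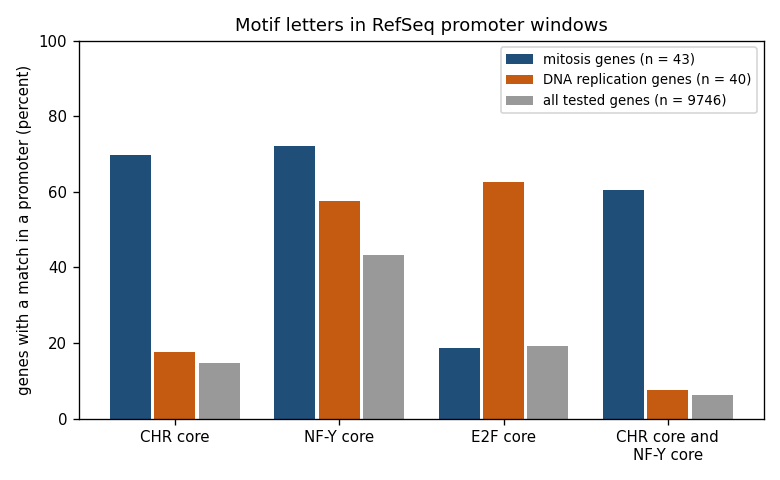
Percent of genes (y axis) with a CHR core, an NF-Y core, an E2F core, or both a CHR and an NF-Y core (x axis) in a RefSeq promoter window, for the 43 mitosis genes, 40 DNA replication genes and 9746 tested genes with a window. The CHR bar stands at 69.8% for the mitosis genes and 14.6% for all tested genes, while the E2F bar stands out at 62.5% for the DNA replication genes.

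Beside the counts of each role stand the shares of all genes tested. With TMM scaling 18.9% fell and 16.4% rose, and with library totals alone 68.7% were called higher and 5.34% lower. The kinases, cyclins and regulators that start mitosis held 11 genes, of which 8 fell and 0 rose with TMM scaling (median log2 fold change -0.20). With library totals alone 3 of them were called higher. Cdk1, the kinase that drives entry into mitosis, stood at 88.5, 91.1 and 89.4 TMM-normalized CPM in the DMSO cultures and at 78.8, 70.5 and 80.6 in the NUP-17d cultures. The groups did not overlap, and the fitted level fell by 14.6% (log2 fold change -0.23, SE 0.04, edgeR adjusted p = 2.0e-04). Its partners moved by the same order. Cyclin B1 (Ccnb1) read 165, 164 and 156 against 143, 133 and 142 CPM (log2 fold change -0.22, SE 0.04, edgeR adjusted p = 4.7e-05), and cyclin A2 (Ccna2), which acts in S phase and G2, read 381, 370 and 371 against 328, 319 and 326 CPM (log2 fold change -0.20, SE 0.03, edgeR adjusted p = 2.1e-05). In both cyclins each NUP-17d culture lay below each DMSO culture. Cdc25b, a phosphatase that removes the brake on Cdk1, had the largest fall of the role, from 326, 313 and 313 to 275, 257 and 262 CPM (log2 fold change -0.26, SE 0.04, edgeR adjusted p = 1.6e-06).

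The remaining kinases split. Cyclin B2 (Ccnb2, -0.22), Aurka (-0.22), a kinase of the spindle poles, Nek2 (-0.18), a kinase that parts the centrosomes, and Plk1 (-0.13), the polo kinase, fell on the log2 scale. Nek2 owed much of its fall to NUP-17d culture 2, at 40.1 CPM beside 50.1 and 47.8, with the DMSO cultures at 51.6 to 52.3. Foxm1, a transcription factor that switches on many genes of this group, stood at 104, 105 and 108 CPM with DMSO and at 102, 101 and 102 with NUP-17d. Those groups do not overlap, but the difference did not pass (log2 fold change -0.05, SE 0.04, edgeR adjusted p = 0.27). The phosphatase Cdc25c (-0.13) and Plk4 (-0.06), the kinase of centriole duplication, did not pass either.

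The spindle checkpoint and anaphase group held 9 genes, of which 5 fell and 0 rose with TMM scaling (median -0.14) and 7 were called higher with library totals alone. Pttg1, the securin that holds separase in check until anaphase, had the largest change of the group, from 36.7, 37.1 and 38.8 to 27.7, 32.0 and 29.0 CPM. The groups were clear of each other and the fitted level fell by 21.3% (log2 fold change -0.35, SE 0.06, edgeR adjusted p = 1.5e-05). Cdc20, which activates the anaphase-promoting complex, read 94.3, 92.7 and 90.2 against 80.4, 81.7 and 84.7 CPM, again without overlap (log2 fold change -0.17, SE 0.04, edgeR adjusted p = 0.0012). The checkpoint genes Bub1 (-0.17), Mad2l1 (-0.14) and Bub1b (-0.10) fell as well. The values for the others that did not pass were -0.14 for Ttk, the checkpoint kinase also called Mps1, -0.12 for Espl1, which encodes separase, -0.08 for Bub3 and -0.07 for Ube2c, the ubiquitin-conjugating enzyme of the anaphase-promoting complex. Ube2c was the most abundant of the 52 per length of transcript, at 306 ± 5.92 FPKM with DMSO (SD, n = 3).

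Of the 7 centromere and kinetochore genes, 5 fell and 0 rose with TMM scaling (median -0.18), while 3 were called higher with library totals alone. Cenpe, a kinesin that carries chromosomes along kinetochore microtubules, read 190, 183 and 181 CPM with DMSO and 161, 145 and 151 with NUP-17d. It had no overlap and the largest fall of the role (log2 fold change -0.28, SE 0.04, edgeR adjusted p = 1.9e-06). The 4 subunits of the Ndc80 complex, which binds the microtubule end, gave unequal values: Spc25 went from 56.5, 53.5 and 55.1 to 45.6, 49.8 and 44.9 CPM (log2 fold change -0.24, SE 0.05, edgeR adjusted p = 2.5e-04), Nuf2 fell by 0.11 on the log2 scale, and Ndc80 (-0.10) and Spc24 (-0.03) did not pass. Spc24 sat at 41.9 to 45.4 CPM with DMSO and 41.4 to 44.4 with NUP-17d, with overlap throughout. Cenpf (-0.25), an outer kinetochore protein, and Cenpa (-0.18), the histone H3 variant that marks the centromere, fell.

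The chromosomal passenger complex, made of the kinase Aurkb and its partners Incenp, Birc5 (survivin) and Cdca8 (borealin), corrects faulty attachments and later guides cytokinesis. With TMM scaling 3 of its 4 genes fell and 0 rose (median -0.19), and with library totals alone 2 were called higher and 1 lower. Incenp, its scaffold, had the largest fall of the 52 with TMM scaling. It read 355, 346 and 353 CPM in the DMSO cultures and 265, 239 and 258 in the NUP-17d cultures, a gap several times the spread within either group. The fitted level fell by 27.7% (log2 fold change -0.47, SE 0.04, edgeR adjusted p = 1.1e-10), and with library totals alone it was still called lower, at -0.20 (edgeR adjusted p = 3.2e-05). Cdca8 went from 116, 116 and 117 to 102, 99.4 and 102 CPM (log2 fold change -0.20, SE 0.04, edgeR adjusted p = 5.9e-05) and Birc5 fell by 0.18 on the log2 scale, both with TMM scaling. Aurkb read 91.2, 85.4 and 86.0 against 83.2, 82.2 and 80.7 CPM, without overlap but short of the threshold (log2 fold change -0.09, SE 0.04, edgeR adjusted p = 0.069).

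Ratios between genes of the complex within a culture do not depend on how libraries are scaled. Per length of transcript, Incenp was 2.38, 2.48 and 2.51 times Aurkb in the DMSO cultures and 1.95, 1.78 and 1.96 times Aurkb in the NUP-17d cultures, so that the mean ratio was 77.1% of its DMSO value. The ratio of Incenp to Birc5 was 82.7% and that of Incenp to Cdca8 83.2% of its DMSO value, and neither overlapped between groups. Cdca8 against Aurkb (1.56 to 1.67 with DMSO, 1.48 to 1.54 with NUP-17d) and Birc5 against Aurkb (2.86 to 2.95 against 2.62 to 2.78) were each lower without overlap, at 92.6% and 93.3%. These 5 ratios were chosen after the values of Incenp were seen, and each gave the smallest two-sided p that an exact permutation test of 3 against 3 allows, 0.1.

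**Figure D4:**
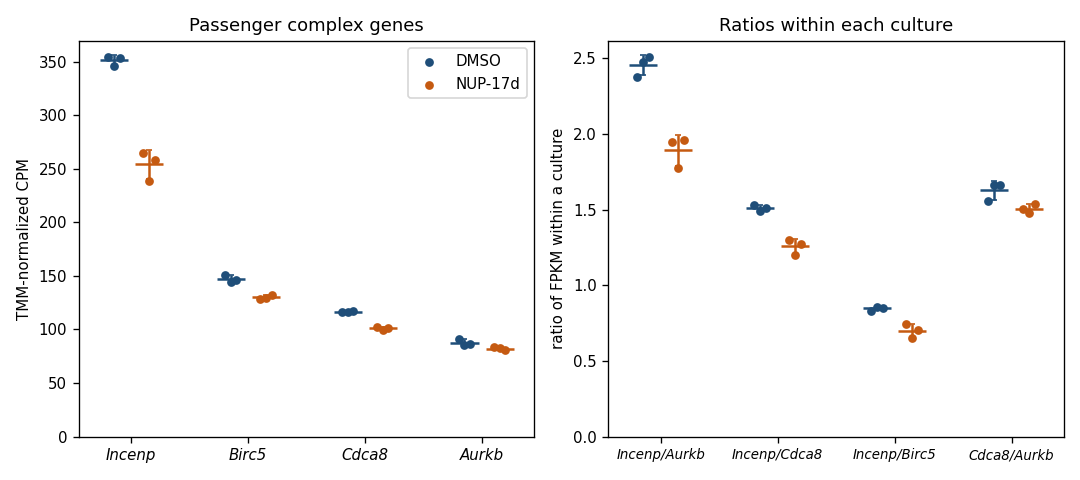
Left, TMM-normalized CPM of the 4 chromosomal passenger complex genes in the 3 DMSO and 3 NUP-17d cultures, and right, ratios of FPKM between pairs of these genes within each culture; points are cultures, lines are means and bars are SD. Incenp drops from 346 to 355 CPM to 239 to 265 CPM, and its ratio to Aurkb from 2.38 to 2.51 to 1.78 to 1.96, a ratio that library scaling cannot move.

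Among the spindle motors and microtubule factors, 4 of 6 genes fell and 0 rose with TMM scaling (median -0.16), and 3 were called higher with library totals alone. Nusap1, which bundles spindle microtubules near chromosomes, went from 199, 195 and 201 to 163, 158 and 158 CPM, with no overlap (log2 fold change -0.31, SE 0.03, edgeR adjusted p = 5.1e-08). Tpx2, which seeds spindle microtubules and activates Aurka, went from 220, 219 and 213 to 188, 182 and 186 CPM, also with no overlap (log2 fold change -0.23, SE 0.03, edgeR adjusted p = 6.2e-06). The chromokinesin Kif4 (-0.18) and Kif11 (-0.15), the motor that pushes the poles apart, fell, whereas the chromokinesin Kif22 (-0.09) and the microtubule depolymerase Kif2c (-0.04) did not pass.

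The genes that shape the chromosomes had the largest share of falls of the 7 roles with TMM scaling, 6 of 7 genes with 0 rises (median -0.22), and 2 were called higher with library totals alone. Mki67, which coats the surface of mitotic chromosomes and whose product is the proliferation antigen Ki-67, read 2361, 2249 and 2212 CPM with DMSO and 1967, 1720 and 1761 with NUP-17d. No NUP-17d culture reached the DMSO range, and the fitted level fell by 20.1% (log2 fold change -0.32, SE 0.04, edgeR adjusted p = 1.1e-06). Ncapg, a subunit of condensin I, went from 106, 102 and 96.2 to 84.6, 79.4 and 83.5 CPM (log2 fold change -0.30, SE 0.04, edgeR adjusted p = 2.0e-06). Top2a, the topoisomerase that untangles sister DNA, went from 533, 529 and 517 to 482, 451 and 455 CPM (log2 fold change -0.19, SE 0.04, edgeR adjusted p = 1.3e-04). Neither overlapped between groups. The condensin core genes Smc2 (-0.24) and Smc4 (-0.22) and the subunit Ncaph (-0.18) fell, and the subunit Ncapd2 (-0.08) did not pass.

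In the central spindle and cytokinesis group 6 of 8 genes fell and 0 rose with TMM scaling (median -0.14), and 5 were called higher with library totals alone. Cit, the citron kinase of the midbody, had the second largest fall of the 52, from 76.3, 77.7 and 67.6 to 59.8, 56.2 and 55.7 CPM. The groups were separate although DMSO culture 3 lay well below the other 2 (log2 fold change -0.37, SE 0.05, edgeR adjusted p = 8.8e-07). Prc1, which crosslinks the microtubules of the central spindle, read 187, 183 and 185 against 162, 159 and 161 CPM, with no overlap (log2 fold change -0.20, SE 0.03, edgeR adjusted p = 3.2e-05). Ect2 (-0.18), the exchange factor that activates RhoA at the cleavage site, the kinesins Kif20a (-0.15) and Kif20b (-0.13), and Anln (-0.12), the anillin of the contractile ring, fell. Kif23 (-0.09) and Racgap1 (-0.04), which together form centralspindlin, did not pass.

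Levels per length of transcript spanned a wide range. Behind Ube2c came Mki67 at 201 ± 3.41 FPKM and Birc5 at 116 ± 0.808 FPKM with DMSO (SD, n = 3), and at the bottom stood Ttk at 9.26 ± 0.622, Cit at 9.56 ± 0.721 and Kif20b at 9.81 ± 0.178 FPKM, which did not differ from each other beyond their spread. The median of the 52 was 38.6 FPKM, against 7.35 over all genes tested. The 37 genes called lower had a median of 42.5 FPKM with DMSO and the 15 others 23.9 FPKM.

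The 52 were also set against their own average. When each gene's count was divided by the geometric mean of the 52 in the same culture, a measure free of library scaling, 11 genes lay lower without overlap in the NUP-17d cultures, 14 higher and 27 overlapped. Over all genes tested, divided by the same mean, 8.46% lay lower without overlap and 54.6% higher. Since the average of the 52 is fixed at 0 by this measure, some had to fall on each side. Incenp (-0.29), Cit (-0.19), Mki67 (-0.15), Nusap1 (-0.13) and Ncapg (-0.12) had the lowest log2 differences among those without overlap, and Spc24 (0.14), Racgap1 (0.14), Kif2c (0.13), Foxm1 (0.12) and Plk4 (0.12) the highest.

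Beyond the 52, a further 125 mitosis genes listed by name and passing the filter showed the same side with smaller values. With TMM scaling 57 (45.6%) fell and 1 rose (median -0.11 on the log2 scale), against 18.9% and 16.4% of all genes tested. With library totals alone 78 were called higher and 2 lower, against 68.7% and 5.34% of all genes tested. Among subunits and regulators of the anaphase-promoting complex 6 of 17 fell. The 3 with the lowest p were Fzr1 (-0.30), the coactivator that follows Cdc20, Ube2s (-0.27) and the subunit Cdc27 (-0.38). In the checkpoint and kinetochore list 18 of 35 fell, among them Mad2l1bp (-0.50), which turns off Mad2, and Knl1 (-0.22). Of 40 further spindle, centrosome and cytokinesis genes 16 fell and 1 rose, with Kif2a (-0.46), a relative of Kif2c, Haus3 (-0.32) and Hmmr (-0.20) at the lowest p. Among 17 genes of condensin II, cohesin and sister chromatid control 10 fell, with Wapl (-0.24), Ncapg2 (-0.26) and Mau2 (-0.21) at the lowest p. For entry and G2/M transcription 7 of 16 fell, with Mybl2 (-0.30), Lin52 (-0.35) and Ccnf (-0.20) at the lowest p. Mad2l1bp and Kif2a were the 2 called lower with library totals alone, at -0.23 and -0.20.

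The genes of DNA replication, which act in S phase, before G2 and mitosis, gave a median close to that of the mitosis genes with TMM scaling. Of 50, 33 (66%) fell and 0 rose (median -0.16 on the log2 scale), against 18.9% and 16.4% of all genes tested. With library totals alone 22 were called higher and 4 lower, against 68.7% and 5.34% of all genes tested. The 3 with the lowest p fell further than any mitosis gene described above: Orc1 (-0.63), a subunit of the origin recognition complex, Rrm2 (-0.57), the small subunit of ribonucleotide reductase, and Ccne1 (-0.55), the cyclin that opens S phase. They were also called lower with library totals alone, at -0.36, -0.30 and -0.29.

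**Figure D5:**
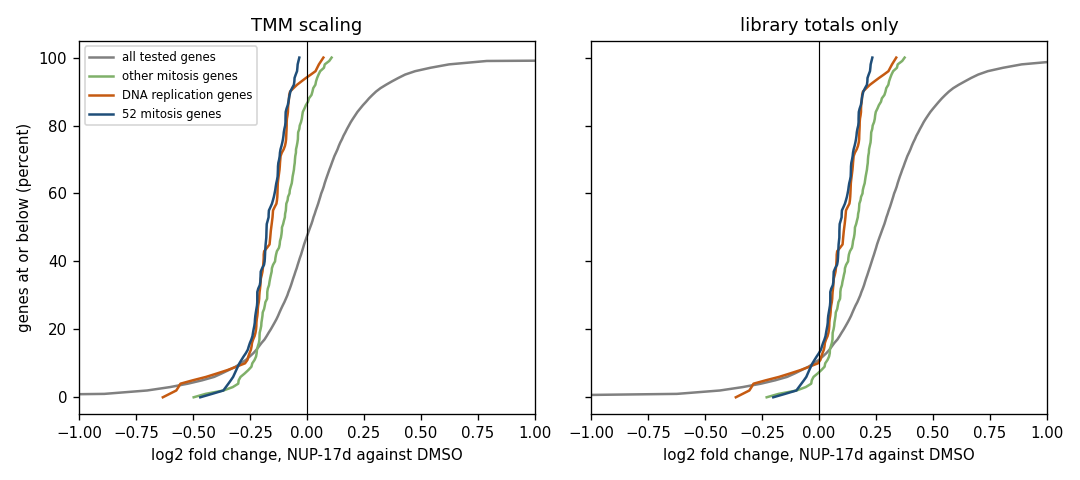
Cumulative percent of genes (y axis) at or below a log2 fold change (x axis, NUP-17d against DMSO; cut off at -1 and 1) for the 52 mitosis genes, 125 other mitosis genes, 50 DNA replication genes and all 12306 genes tested, with TMM scaling on the left and library totals alone on the right. The 52 have the lowest median on both scales, while that median moves from -0.18 to 0.09 and that of all genes from 0.01 to 0.28.

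The label of the cells as erythroblasts was set against markers. Beside the counts of markers called with TMM scaling, 16.4% of all genes tested rose and 18.9% fell. Erythroid markers were by far the most abundant of those listed, with a summed level of 188221 to 215531 CPM with DMSO and 106089 to 118090 with NUP-17d, and 12 of 12 fell (median log2 fold change -0.70), 10 of them also with library totals alone. The anion exchanger Slc4a1 stood at 12227 CPM with DMSO on average and Alas2 at 4441, while reads of the near-identical hemoglobin genes may be split between copies. Other lineages were present: neutrophil markers summed to 4000 to 4180 CPM with DMSO and 4099 to 4378 with NUP-17d, with 3 of 10 higher and 1 lower, led by Mpo at 1756 CPM with DMSO. Macrophage markers summed to 625 to 685 against 678 to 751 CPM, with 3 of 8 higher and 3 lower, and stem and progenitor markers to 462 to 466 against 482 to 500 CPM, with 2 of 7 tested higher. Megakaryocyte markers summed to 332 to 361 against 375 to 396 CPM, with 3 of 6 higher and 1 lower, and mast cell and basophil markers to 234 to 251 against 207 to 214 CPM, with 1 of 6 higher and 3 lower. Lymphocyte markers were near the floor, at 28.4 to 31.8 against 26.0 to 26.9 CPM, with 2 of 7 tested lower. The lymphocyte marker Igkc was not analysed here, and each of the other listed markers had counts in at least 1 culture.

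The erythroid markers thus moved in the same direction as the mitosis genes with TMM scaling, with a median of -0.70 beside -0.18, and the part of cell makeup in the mitosis values was not tested. In a bulk culture, fewer cells of a type and less RNA per cell cannot be told apart, nor can fewer cells in mitosis and less mitotic RNA in each. With the hemoglobin genes removed before scaling, the same 37 mitosis genes were called lower (median log2 fold change -0.1765 beside -0.1768). TMM levels the bulk of genes, so dropping a few genes could hardly move it, and this is no check on cell makeup.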

How the data were processed

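RNA from 6 cultures of mouse lineage-negative BM cells in EPO medium (3 DMSO, 3 NUP-17d, 48 hours) was analysed. The deposited tables gave, per gene and culture, the authors' expected counts (estimated counts, not always whole) and the authors' FPKM, without replicates pooled. The submitters' processing notes name the build mm10, while the counting program is not given in the sources used here. The study's methods name a stranded kit and the labels describe a random-primed library with no strand step, and whether counting used strand is not given, so reads from overlapping antisense genes cannot be told apart. Genes missing from a table counted as 0.

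Counts were rounded, filtered with filterByExpr (12306 genes kept), scaled by TMM and tested with edgeR 4.0.16 (R 4.3.3). The threshold was a Benjamini-Hochberg adjusted p of 0.05, and the SE is the fitted log2 fold change over the square root of F. DESeq2 1.42.0, limma 3.58.1 on log2 FPKM (pseudocount 1 or 0.1, mean FPKM 1 or more), RLE factors, library totals, no filter, removal of hemoglobin genes, a replicate block and leaving out each culture were the alternatives. The edgeR, DESeq2 and limma fits were also run on simulated data, with an outcome that is not given here. Simulated data cannot show which scaling is right for these cultures, so no result above rests on that run. Scaled by library totals, culture pairs within a group differed by 1.83 to 4.51 times the counting noise (chi-square per degree of freedom). Pairs across groups differed by 44.2 to 83.9 times. No culture was therefore counted as a second reading of the same library. These values cannot tell separate cultures from separate libraries of 1 culture.

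The 52 genes, their roles and the other lists were chosen with earlier results of these data known. All 52 are named with their log2 fold change. Values by culture are given for the 2 lowest p of each role and for Cdk1, Ccnb1, Aurkb, Top2a, Mki67 and Foxm1, and 3 genes with the lowest p are named from each other list, except that 1 of them is not reported here.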

Additional observations from a re-analysis of the deposited data

How the results depend on the processing

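The falls of the mitosis genes kept their direction with RLE factors (39 called lower), DESeq2 (32), no filter (35), hemoglobin genes removed (37) and each culture left out (32 to 41). Each of these settings holds the median log2 fold change of all genes near 0 (0.01 to 0.03), so the direction could hardly turn. No overlap held for 41 genes with RLE factors and 40 without hemoglobin genes. With a replicate block 41 were called lower. Beside these counts, DESeq2 called 15.0% of its genes lower, and the shares of all genes with the other settings were not counted. The numbers of the labels were not taken as pairs, since same-numbered cultures did not stand out. Their deviations correlated at 0.0657, 0.00637 and 0.00461, and those of DMSO culture 3 and NUP-17d culture 2 at 0.0711. Correlations this near 0, from 3 cultures a group, cannot exclude pairs. Each mitosis gene had at least 394 counts in a culture, and both counting noise and the spread between 3 cultures a group limit small differences. The SE was 0.06 for Cdc25c, at 394 to 460 counts, and 0.03 for Ccna2, at 6902 to 7256.

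Library totals alone, limma on log2(FPKM + 1) and limma on log2(FPKM + 0.1) moved or turned these results, and values are given in that order. All 3 leave out the composition factor, and the cause was not tested further. Over all genes tested, 68.7% were called higher and 5.34% lower with library totals, and 74.9% and 5.68% with log2(FPKM + 1). These shares were not counted with log2(FPKM + 0.1). For the 52 mitosis genes, 25, 26 and 26 were called higher, 1 with each lower, and the medians were 0.090, 0.091 and 0.093. For other mitosis genes, 78 with each were called higher, 2 with each lower, and the medians were 0.16, 0.15 and 0.16. For DNA replication genes, 22, 27 and 27 were called higher, 4 with each lower, and the medians were 0.11, 0.11 and 0.11. For erythroid markers, 0 with each were called higher, 10 with each lower, and the medians were -0.44, -0.43 and -0.43. For stem and progenitor markers, 7 with each were called higher, 0 with each lower, and the medians were 0.37, 0.35 and 0.37. For neutrophil markers, 9, 10 and 10 were called higher, 0 with each lower, and the medians were 0.29, 0.29 and 0.29. For macrophage markers, 5 with each were called higher, 0, 1 and 1 lower, and the medians were 0.29, 0.28 and 0.29. For megakaryocyte markers, 5 with each were called higher, 1 with each lower, and the medians were 0.38, 0.36 and 0.38. For mast cell and basophil markers, 2 with each were called higher, 0 with each lower, and the medians were 0.065, 0.058 and 0.078. For lymphocyte markers, 1 with each were called higher, 1, 0 and 0 lower, and the medians were 0.090, 0.089 and 0.093. With library totals and with FPKM, 33 of the 52 lay wholly above DMSO and 1 below, and with log2(FPKM + 1) the 52 stood at -0.15 against the median gene. The log2 fold changes that turned, in the same order, were as follows. Ube2s (0.00028, 0.0039, 0.0039), Cdc25b (0.0071, 0.0099, 0.010), Ncapg2 (0.011, 0.013, 0.014), Cenpf (0.016, 0.017, 0.018), Wapl (0.024, 0.027, 0.027) and Smc2 (0.028, 0.028, 0.029) turned. Spc25 (0.033, 0.033, 0.034), Tpx2 (0.038, 0.044, 0.045), Cdk1 (0.039, 0.041, 0.042), Aurka (0.044, 0.050, 0.051), Knl1 (0.047, 0.046, 0.049) and Ccnb2 (0.049, 0.052, 0.053) turned. Smc4 (0.049, 0.053, 0.053), Ccnb1 (0.050, 0.053, 0.053), Mau2 (0.060, 0.061, 0.063), Ccna2 (0.063, 0.066, 0.067), Cdca8 (0.064, 0.067, 0.068) and Prc1 (0.065, 0.067, 0.068) turned. Hmmr (0.065, 0.067, 0.069), Ccnf (0.071, 0.073, 0.075), Top2a (0.081, 0.084, 0.084), Kif4 (0.083, 0.083, 0.088), Ect2 (0.085, 0.077, 0.081) and Cenpa (0.086, 0.092, 0.093) turned. Birc5 (0.089, 0.077, 0.078), Ncaph (0.089, 0.091, 0.094), Nek2 (0.091, 0.084, 0.088), Bub1 (0.099, 0.096, 0.10), Cdc20 (0.10, 0.10, 0.10) and Kif20a (0.11, 0.11, 0.12) turned. Kif11 (0.12, 0.12, 0.13), Mad2l1 (0.13, 0.14, 0.14), Ttk (0.13, 0.12, 0.13), Cdc25c and Kif20b (0.14, 0.13, 0.14), Plk1 (0.14, 0.14, 0.14) and Espl1 and Anln (0.15, 0.14, 0.15) turned. Bub1b (0.16, 0.16, 0.17), Nuf2 (0.16, 0.16, 0.16), Ndc80 (0.17, 0.16, 0.17), Aurkb, Kif22 and Kif23 (0.17, 0.17, 0.18), Ncapd2 (0.18, 0.19, 0.19) and Bub3 (0.19, 0.19, 0.19) turned. Ube2c (0.20, 0.20, 0.20), Plk4 (0.21, 0.20, 0.21), Foxm1 (0.21, 0.21, 0.22), Kif2c (0.22, 0.22, 0.23), Spc24 (0.23, 0.23, 0.24) and Racgap1 (0.23, 0.22, 0.23) turned. With all 3, Pttg1 (-0.078, -0.073, -0.075), Cenpe (-0.013, -0.0094, -0.0099), Nusap1 (-0.044, -0.039, -0.040), Ncapg (-0.030, -0.025, -0.026), Mki67 (-0.056, -0.055, -0.055), Cit (-0.10, -0.084, -0.092), Fzr1 (-0.033, -0.029, -0.029), Cdc27 (-0.11, -0.10, -0.11), Haus3 (-0.050, -0.043, -0.045), Mybl2 (-0.034, -0.029, -0.030) and Lin52 (-0.081, -0.069, -0.076) kept their direction but were no longer called.

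Leaving out each culture gave these ranges, while the shares of all genes called were not counted. Other mitosis genes gave 0 to 2 higher, 45 to 55 lower, medians -0.12 to -0.096. DNA replication genes gave 0 higher, 26 to 33 lower, medians -0.19 to -0.14. Erythroid markers gave 0 higher, 12 lower, medians -0.73 to -0.67. Stem and progenitor markers gave 1 to 3 higher, 0 lower, medians 0.082 to 0.12. Neutrophil markers gave 2 to 3 higher, 1 to 2 lower, medians -0.015 to 0.040. Macrophage markers gave 2 to 3 higher, 0 to 3 lower, medians -0.038 to 0.088. Megakaryocyte markers gave 2 to 3 higher, 1 lower, medians 0.065 to 0.16. Mast cell and basophil markers gave 0 to 1 higher, 3 lower, medians -0.25 to -0.11. Lymphocyte markers gave 0 higher, 1 to 3 lower, medians -0.22 to -0.12. The macrophage median fell below 0 without DMSO replicate 1 or NUP-17d replicate 2 and the neutrophil median without NUP-17d replicate 3. The other mitosis genes called higher were 0 with RLE factors and DESeq2. DESeq2 called 1 stem and progenitor marker and 0 mast cell and basophil markers higher, and 1 lymphocyte marker lower. Without hemoglobin genes the erythroid median was -0.64 and the lymphocyte median -0.15.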
